A study of Mus musculus with 4 samples.

Results

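A set of 9 genes best known from neurons and endocrine cells was followed in marrow stromal cells of mouse femurs: Sstr2, Rgs4, Cpe, Nxph2, Lgi1, Slitrk6, Amph, Mtap1b and Adarb2. These 9 of the 17230 genes in the count table were selected on their measured counts, as genes much lower in the Hes1-derived than in the Fgfr3-derived libraries, most of them also relative to eGFP reads. The difference between the 2 groups therefore chose them, and it is given below as a description with no test. RNA of sorted cells was sequenced in bulk from 2 Hes1-derived libraries (replicates 1 and 3) and 2 Fgfr3-derived libraries (replicates 2 and 3). All mice were at postnatal day 21 and carried Cxcl12(GFP/+), which reports Cxcl12 and leaves a single intact allele of it, and R26R(tdTomato/+), a permanent mark that Cre switches on. In the first group the Cre was Hes1(CreER/+), driven by the Hes1 locus, and in the second it was Fgfr3-iCreER, driven by Fgfr3. Tamoxifen was given once, at embryonic day 12.5, so that tdTomato marks descendants of cells in which the respective driver was active then. Per the series title, perichondrium and chondrocytes of the fetus are the origins compared, and the sorted cells are CXCL12-abundant reticular (CAR) cells. Hes1(CreER/+) is written as an allele of Hes1 itself, carried by the first group alone. Cre driver, this Hes1 allele and origin differ together between the groups and cannot be told apart. The labels do not say whether the libraries of a group came from separate mice, so p-values measure the spread between these libraries, which may be technical.

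CAR cells are marrow stromal cells that surround blood vessels and supply factors to blood-forming cells. Neurons and endocrine cells make peptides in a regulated secretory pathway: carboxypeptidase E (Cpe) trims prohormones, vesicle proteins such as amphiphysin (Amph) recycle membrane, and G protein-coupled receptors such as the somatostatin receptor Sstr2 restrain release, with RGS proteins shortening the G protein signal. Secreted or surface proteins of synapses, among them Nxph2, Lgi1 and Slitrk6, join partner cells, while Mtap1b stabilizes microtubules of growing axons.

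RefSeq (build GRCm38.p6) gave a window upstream of the start of 8 of the 9 genes, and motifs were searched in its 250 bases on both strands. The first 2 sequences below are shown because they held a match to a searched motif other than the E-box, written in capitals, and the other 2 because they had the highest and the lowest share of G and C among the 8. The windows are chr11:113619077-113619326 on the + strand for Sstr2, chr2:23320996-23321245 on the + strand for Nxph2, chr13:99516603-99516852 on the - strand for Mtap1b and chr14:110755150-110755399 on the - strand for Slitrk6.
Sstr2: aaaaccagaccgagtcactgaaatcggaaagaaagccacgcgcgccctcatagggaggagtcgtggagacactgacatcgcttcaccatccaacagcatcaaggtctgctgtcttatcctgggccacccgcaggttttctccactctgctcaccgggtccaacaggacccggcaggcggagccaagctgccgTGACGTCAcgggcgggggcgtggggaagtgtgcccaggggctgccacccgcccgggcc
Nxph2: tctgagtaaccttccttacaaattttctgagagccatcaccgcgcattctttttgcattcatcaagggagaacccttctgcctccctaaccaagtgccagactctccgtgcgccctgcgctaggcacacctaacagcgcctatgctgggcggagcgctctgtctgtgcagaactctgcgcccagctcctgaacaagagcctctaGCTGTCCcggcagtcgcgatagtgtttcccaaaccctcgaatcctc
Mtap1b: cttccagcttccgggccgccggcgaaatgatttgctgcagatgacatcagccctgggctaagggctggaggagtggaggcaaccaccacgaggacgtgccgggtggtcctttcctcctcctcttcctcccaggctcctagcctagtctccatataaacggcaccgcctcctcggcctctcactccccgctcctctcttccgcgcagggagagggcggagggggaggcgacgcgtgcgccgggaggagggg
Slitrk6: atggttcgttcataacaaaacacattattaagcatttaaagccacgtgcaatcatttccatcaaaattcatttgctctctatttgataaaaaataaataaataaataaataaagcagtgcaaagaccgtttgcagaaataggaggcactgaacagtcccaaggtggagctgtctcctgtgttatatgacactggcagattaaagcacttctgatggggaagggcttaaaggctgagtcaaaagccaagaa

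The capitals in Sstr2 are TGACGTCA, the cAMP response element, which was found in 1 of the 8 promoters and in 1.55% of all 32851 promoter windows of the same length. In Nxph2 they are GGACAGC read on the opposite strand, the right part of RE1, the element bound by the neuronal repressor REST; it was found in 1 of 8 promoters and in 5.28% of all. The left part of RE1, TTCAGCACC (0.301% of all), and the RUNX core TGTGGT (14.0% of all) were found in none of the 8. The E-box CANNTG, which can overlap GGACAGC where TG follows it, was found in 7 of 8 promoters and in 66.2% of all. Base composition ranged widely, from 37.2% G and C with 3 CG dinucleotides in Slitrk6 to 66.4% with 19 in Mtap1b. The median of the 8 was 54.6% with 12.5 CG, beside 52.4% with 6 CG over all promoters. A match here describes letters in this window and says nothing of a bound factor.

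The 4 libraries held between 22745128 and 26804832 counted reads, and 14330 genes passed the low-count filter and were tested. Levels are CPM (reads per 1e+06 reads of the library) after TMM scaling, and a negative log2 fold change is a lower level in the Hes1-derived group. Paired values are in the order replicate 1, replicate 3 for the Hes1-derived and replicate 2, replicate 3 for the Fgfr3-derived libraries. The 9 genes together took 3318 and 3409 reads in the Hes1-derived libraries and 17312 and 18800 in the Fgfr3-derived ones. Cpe and Rgs4 made up 90.0% and 91.9% of these reads in the Hes1-derived and 78.3% and 83.6% in the Fgfr3-derived libraries. All 9 passed the low-count filter. Of these, 3 (Amph, Nxph2 and Adarb2) had under 10 reads in each Hes1-derived library, and Lgi1 had 9 and 19 reads there. None of these genes would have passed on the Hes1-derived libraries alone. In all 9, both Hes1-derived libraries lay below both Fgfr3-derived libraries, which also held for 32.1% of tested genes. All 9 were also among the genes called lower, which made up 6.56% of tested genes. The choice of the members fixed both counts. Cells of a type being fewer and their RNA being less cannot be told apart in bulk samples.

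**Figure D1:**
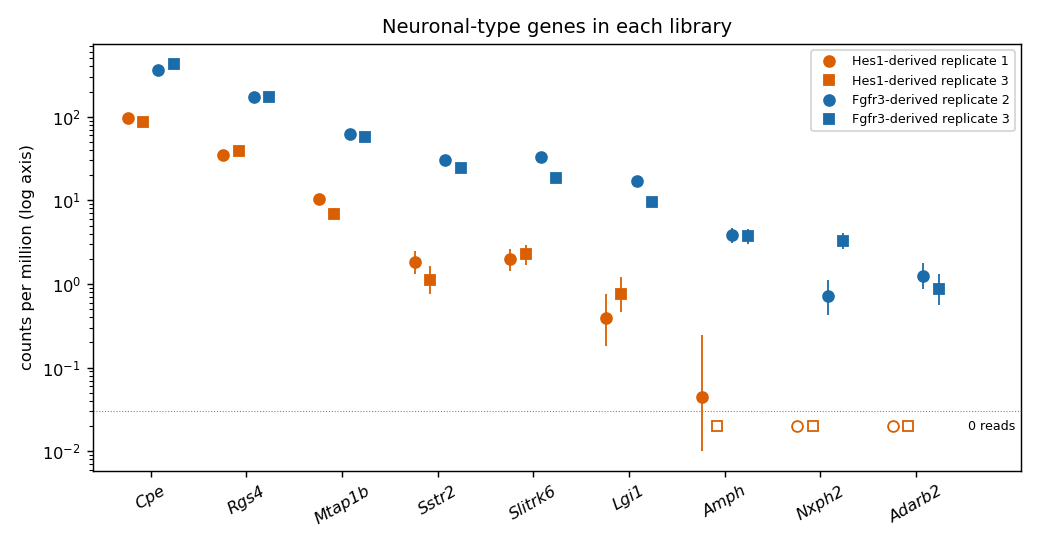
CPM of each of the 9 genes (log axis) in the 2 Hes1-derived (orange) and 2 Fgfr3-derived (blue) libraries, with 95% Poisson intervals for counting error as bars (the bar of Amph runs below the range drawn) and open symbols for libraries with 0 reads. The blue symbols lie above the orange ones for every gene, by 3.76-fold at the nearest pair of libraries for Cpe and by 13.2-fold for Sstr2.

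The receptor of the set was Sstr2, through which somatostatin lowers hormone secretion by way of inhibitory G proteins (chr11:113619342-113626028, GRCm38, + strand, 2 exons). It had 42 and 28 reads in the Hes1-derived libraries and 766 and 639 reads in the Fgfr3-derived libraries, or 1.85 and 1.13 CPM against 30.2 and 24.4 CPM. Both Hes1-derived libraries were low and the groups did not come near each other, the lowest Fgfr3-derived level being 13.2 times the highest Hes1-derived one. The log2 fold change was −4.20 ± 0.38 (SE, n = 2 libraries a group), or 18.4-fold lower. Among tested genes, Sstr2 stood above 52.1% in mean CPM in the Fgfr3-derived and above 12.1% in the Hes1-derived libraries. Its gene lies within the span of Slc39a11 on the opposite strand, with 0 shared exon bases.

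The somatostatin genes around it had few reads. Sst, Sstr4 and Sstr5 were not analysed here. Cort, which encodes the related peptide cortistatin, had 3, 5, 9 and 10 reads in the 4 libraries, and Sstr3 had 0, 0, 3 and 3. Sstr1 alone was tested. It had 0.528 and 1.25 CPM against 1.30 and 0.459 CPM, so the groups overlapped, with a log2 fold change of 0.02 ± 0.85 (edgeR, adjusted p = 0.99) that was −0.73 without Hes1-derived replicate 3. In Hes1-derived replicate 3 the 31 reads of Sstr1 were on a par with the 28 of Sstr2, while in the Fgfr3-derived libraries Sstr1 had 33 and 12 reads.

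Rgs4 (chr1:169741477-169747642, - strand, 4 exon blocks), which speeds the shut-off of Gi and Gq proteins and thereby limits signals from receptors of this kind, was abundant in both groups. It had 34.8 and 39.4 CPM in the Hes1-derived libraries and 171 and 174 CPM in the Fgfr3-derived libraries. The libraries of each group were close together, and the groups were apart by 4.34-fold at the nearest. The log2 fold change of −2.22 ± 0.21 corresponded to a 4.65-fold lower level.

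Of 14 other RGS genes tested, 2 were lower (14.3%, beside 6.56% of all tested genes) and none was higher (5.24% of all), while 4 were higher at an unadjusted p under 0.05 and DESeq2 called Rgs1 and Rgs14 higher. Their median log2 fold change was 0.16 (−0.02 over all tested genes), and 0.98 after scaling to eGFP reads. Rgs3, a regulator of the same G proteins, had 171 and 103 CPM against 360 and 350 CPM (log2 fold change −1.38 ± 0.28, adjusted p = 0.028). Rgs5, known as a marker of pericytes, had 8.58 and 6.93 CPM against 20.9 and 19.5 CPM (log2 fold change −1.38 ± 0.29, adjusted p = 0.030). Neither was lowered as far as Rgs4, though the differences between these genes were not tested. The call of Rgs3 ended without Hes1-derived replicate 3 (adjusted p = 0.11) and Fgfr3-derived replicate 2 (0.065), and that of Rgs5 without Hes1-derived replicates 1 (0.054) or 3 (0.14) or Fgfr3-derived replicate 2 (0.097); after scaling to eGFP reads the adjusted p was 0.59 and 0.63.

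Cpe (chr8:64592542-64693054, - strand, 12 exon blocks) had the most reads of the 9 in every library. The enzyme removes basic residues from the ends of peptide hormone precursors. It had 96.6 and 86.9 CPM in the Hes1-derived libraries and 363 and 427 CPM in the Fgfr3-derived libraries. Within each group the 2 libraries differed little, and between groups the gap was at least 3.76-fold. The log2 fold change was −2.11 ± 0.22, or 4.31-fold lower, the smallest of the 9. In the Fgfr3-derived libraries its mean CPM exceeded that of 97.4% of tested genes, and in the Hes1-derived libraries that of 82.8%.

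Genes of the enzyme family of Cpe and of prohormone processing moved in both directions. Of 13 tested, 3 were lower (23.1%) and 1 was higher (7.69%), with a median of −0.35 that became 0.40 after scaling to eGFP reads. At an unadjusted p under 0.05, 5 were lower and 2 were higher. DESeq2 also called Furin, Cpxm1 and Cpz lower. Scg5, which encodes the chaperone 7B2 of a prohormone convertase, had 3 and 2 reads in the Hes1-derived and 45 and 44 in the Fgfr3-derived libraries (log2 fold change −3.97 ± 0.84, adjusted p = 0.029). Scg5 would not have passed the low-count filter on the Hes1-derived libraries alone, so only a lower call was open to it. Aebp1, a catalytically inactive relative of Cpe that binds collagen, had 24.7 and 17.3 CPM against 63.5 and 88.9 CPM (log2 fold change −1.86 ± 0.28, adjusted p = 0.017). Pcsk6, a proprotein convertase, had 3.78 and 3.06 CPM against 9.46 and 24.2 CPM (log2 fold change −2.30 ± 0.50, adjusted p = 0.032). Cpm, a membrane carboxypeptidase, was higher, at 104 and 126 CPM against 22.3 and 38.8 CPM (log2 fold change 1.91 ± 0.30, adjusted p = 0.019). Pcsk1, a convertase of endocrine cells named after its values were seen, was too low to test, with at most 4 reads in a library.

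Cpm kept its call without any single library and under the eGFP scaling (adjusted p = 0.035), and Aebp1 lost it without Hes1-derived replicate 3 (0.0505) and under the eGFP scaling (0.40). Scg5 lost the call without each library in turn, namely Hes1-derived replicates 1 (0.059) and 3 (0.13) and Fgfr3-derived replicates 2 (0.13) and 3 (0.079), and under the eGFP scaling (0.15). Pcsk6 lost it without Hes1-derived replicates 1 (0.065) or 3 (0.13) or Fgfr3-derived replicate 3 (0.088) and under the eGFP scaling (0.26).

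Of the secreted synaptic ligands, Nxph2 (chr2:23321246-23401973, + strand, 2 exon blocks), a secreted glycoprotein of the neurexophilin family, was detected in the Fgfr3-derived libraries alone. It had 0 reads in both Hes1-derived libraries, which allows up to 0.132 and 0.121 CPM (3 reads), and 18 and 86 reads, or 0.710 and 3.29 CPM, in the Fgfr3-derived libraries. The Fgfr3-derived libraries themselves were far apart, with 95% Poisson intervals of 0.421 to 1.12 and 2.63 to 4.06 CPM. Against 3 reads over the Hes1-derived group, the level there was at least 32.0-fold lower. This bound rested on Fgfr3-derived replicate 3, without which it was 11.2-fold, and it was 52.1-fold without Fgfr3-derived replicate 2. With a single Hes1-derived library, which has less depth, it was 16.7-fold without replicate 1 and 15.3-fold without replicate 3. The other neurexophilin genes were hardly detected, Nxph1 and Nxph3 with 3 reads each in Fgfr3-derived replicate 3 and 0 elsewhere, and Nxph4 with 2 to 5 reads a library.

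Lgi1 (chr19:38264536-38312214, + strand, 8 exon blocks) encodes a secreted leucine-rich glycoprotein that links ADAM22 and ADAM23 across the synapse. It had 9 and 19 reads in the Hes1-derived libraries and 429 and 249 in the Fgfr3-derived libraries, or 0.396 and 0.766 CPM against 16.9 and 9.52 CPM. The groups were apart by 12.4-fold at the nearest libraries, and the log2 fold change was −4.49 ± 0.54, or 22.5-fold lower. Its exons share 532 bases with Gm42723, an antisense gene, and since the strand setting of the counting is not given in the sources used here, reads of both cannot be told apart.

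Among 6 related genes tested (3 LGI and 3 ADAM genes), 1 was lower (16.7%) and none was higher, by edgeR, DESeq2 or an unadjusted p under 0.05, with a median of −0.73 (0.13 after scaling to eGFP reads). That gene was Lgi3, with 1 and 7 reads in the Hes1-derived and 73 and 82 in the Fgfr3-derived libraries (log2 fold change −4.14 ± 0.87, adjusted p = 0.029). Lgi3 would not have passed the low-count filter on the Hes1-derived libraries alone, so only a lower call was open to it. It lost the call without Fgfr3-derived replicate 2 (0.093) or 3 (0.065) and under the eGFP scaling (0.11). The binding partners of Lgi1 were low in all 4 libraries. Adam22 had 1.98 and 1.17 CPM against 1.62 and 2.10 CPM, and Adam23 had 0.220 and 0.605 CPM against 1.14 and 0.803 CPM; both are named after their values were seen, and neither passed the test.

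Slitrk6 (chr14:110748580-110755149, - strand, 2 exon blocks) is a leucine-rich transmembrane protein of neurons and the inner ear. It had 1.98 and 2.26 CPM in the Hes1-derived libraries and 33.0 and 18.4 CPM in the Fgfr3-derived libraries. Its Hes1-derived libraries were within counting error of each other, while the Fgfr3-derived libraries were apart by 1.79-fold. The log2 fold change was −3.60 ± 0.40, or 12.1-fold lower. Of its relatives, Slitrk1 and Slitrk3 were not analysed here, and Slitrk2, Slitrk4 and Slitrk5 had at most 29 reads in a library. Of 11 tested genes of this and related leucine-rich families and their receptors, 1 was lower (9.09%) and none was higher. Their median was −0.98 (−0.21 after scaling to eGFP reads). At an unadjusted p under 0.05, 4 were lower and 1 was higher. DESeq2 also called Ptprd and Ptprf lower and Lrrn1 higher. Ptprs, a receptor phosphatase that binds SLITRK proteins, had 81.0 and 52.1 CPM against 148 and 135 CPM (log2 fold change −1.09 ± 0.26, adjusted p = 0.039). It lost the call without Hes1-derived replicate 3 (0.19) or Fgfr3-derived replicate 2 (0.10) and under the eGFP scaling (0.77).

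Amph (chr13:18948205-19150921, + strand, 23 exon blocks) encodes amphiphysin, which bends membrane and recruits dynamin during synaptic vesicle endocytosis. A single read was found in Hes1-derived replicate 1 and none in replicate 3, against 97 reads in each of the Fgfr3-derived libraries (3.83 and 3.71 CPM). The Fgfr3-derived libraries were alike and the Hes1-derived ones at the limit of detection. The ratio of the summed counts was 179 (95% exact interval 31.8 to 7108, counting error only). Of 20 endocytic genes tested around it none was called, where 4 were lower and 2 higher at an unadjusted p under 0.05, and DESeq2 called Sh3gl1 and Synj2 lower. Their median was 0.09 (0.92 after scaling to eGFP reads). The most abundant were Ap2m1, a clathrin adaptor subunit, at 729 and 655 CPM against 623 and 729 CPM, and Dnm2, the widely expressed dynamin, at 333 and 296 CPM against 226 and 291 CPM.

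Mtap1b (now Map1b; chr13:99421446-99516540, - strand, 10 exon blocks) had 10.3 and 6.93 CPM in the Hes1-derived libraries and 62.1 and 57.8 CPM in the Fgfr3-derived libraries. The groups were 5.61-fold apart at the nearest libraries, and the log2 fold change was −2.80 ± 0.28, or 6.96-fold lower. Of 16 other microtubule-associated and stathmin-type genes tested, 2 were lower (12.5%) and 1 was higher (6.25%), with a median of −0.59 (0.22 after scaling to eGFP reads). At an unadjusted p under 0.05, 4 were lower and 2 were higher. DESeq2 also called Dpysl3 and Dclk1 lower and Stmn1 higher. Dpysl2, a tubulin-binding protein of axons, had 19.8 and 25.6 CPM against 51.3 and 41.1 CPM (log2 fold change −1.02 ± 0.25, adjusted p = 0.044). Mtap4, the widely expressed microtubule protein MAP4, had 71.7 and 54.2 CPM against 120.3 and 109.8 CPM (log2 fold change −0.87 ± 0.22, adjusted p = 0.049). Mtap7 was higher, at 15.2 and 14.2 CPM against 4.46 and 6.04 CPM (log2 fold change 1.49 ± 0.34, adjusted p = 0.035). The neuronal proteins tau (Mapt), doublecortin (Dcx) and Stmn2, named after their values were seen, were too low to test. The call of Mtap4 ended without Hes1-derived replicate 1 (0.067) or 3 (0.26) or Fgfr3-derived replicate 2 (0.13) or 3 (0.058), that of Dpysl2 without Hes1-derived replicate 1 (0.16) or 3 (0.10) or Fgfr3-derived replicate 2 (0.17), and that of Mtap7 without Hes1-derived replicate 1 (0.093) or 3 (0.11) or Fgfr3-derived replicate 2 (0.12); under the eGFP scaling the adjusted p was 0.95 for Mtap4 and 0.94 for Dpysl2, with log2 fold changes of −0.081 and −0.084, and 0.082 for Mtap7, whose log2 fold change was larger there, at 2.29.

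Adarb2 (chr13:8202866-8768747, + strand, 12 exon blocks) encodes ADAR3, a brain protein that binds double-stranded RNA without known editing activity. It had 0 reads in both Hes1-derived libraries and 32 and 23 reads, or 1.26 and 0.879 CPM, in the Fgfr3-derived libraries. Against 3 reads over the Hes1-derived group it was at least 16.9-fold lower there, a bound of 8.83-fold without Hes1-derived replicate 1 and 8.09-fold without replicate 3. Of the 2 editing enzymes tested beside it, Adarb1 was lower, at 9.32 and 8.87 CPM against 30.6 and 35.3 CPM (log2 fold change −1.86 ± 0.26, adjusted p = 0.016), a call it kept without any single library but not under the eGFP scaling (0.43). Adar, named after its values were seen, had 46.6 and 49.0 CPM against 25.3 and 32.0 CPM (log2 fold change 0.74 ± 0.23, adjusted p = 0.081).

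**Figure D2:**
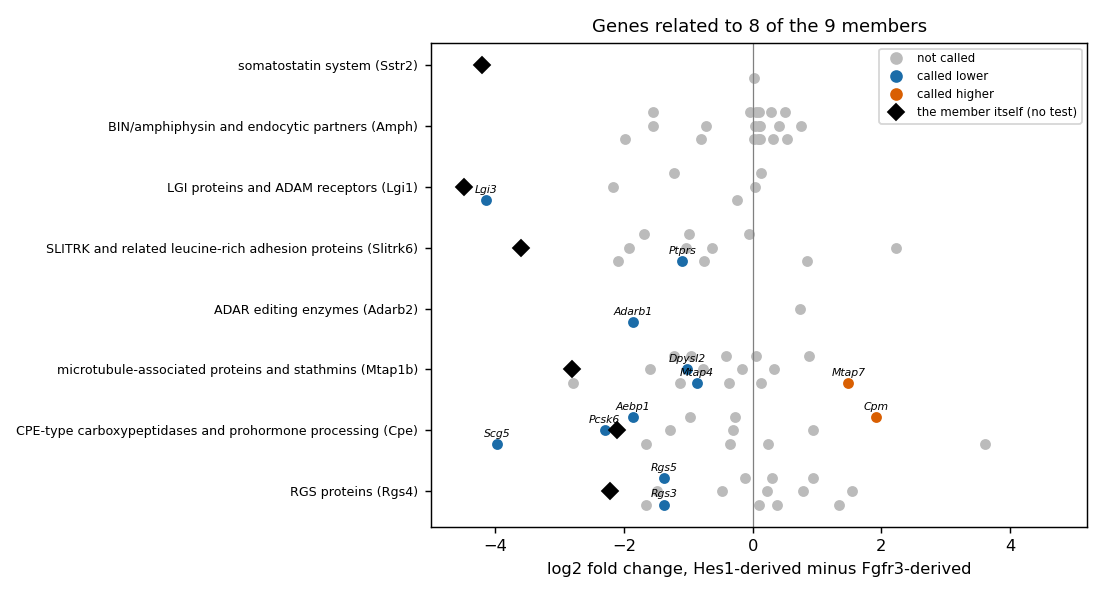
Log2 fold changes (Hes1-derived minus Fgfr3-derived) of the tested genes in the family or pathway of 8 members (all but Nxph2), with called genes in colour and the member itself as a black diamond where it had over 3 reads in the Hes1-derived group. The 12 called genes drawn are 10 lower and 2 higher, and the diamonds lie at −2.11 or below.

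Over these 9 families together, 10 of 88 tested genes were lower (11.4%, beside 6.56% of all tested genes) and 3 were higher (3.41%, beside 5.24%). Among the 10, Scg5 and Lgi3 passed the low-count filter only with the Fgfr3-derived libraries, so only a lower call was open to them. The same limit holds in reverse for a gene that passed through the Hes1-derived libraries alone. The median was −0.29, where that of all tested genes was −0.02. At an unadjusted p under 0.05, 22 were lower and 13 higher. Over all genes 751 calls were higher and 940 lower (44.4% higher), against 324 and 19 (94.5%) after scaling to eGFP reads and 1293 and 138 (90.4%) after scaling to the reads of 26 reticular stroma genes, which moved the median gene up by 0.84 and 0.65. Under these scalings 0 and 3 of the 88 family genes were lower and 3 and 8 higher, and their medians were 0.48 and 0.31. These scalings move genes of both directions up alike by construction, and the family medians moved with them.

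Relative to eGFP, the reporter of Cxcl12, the members were lower too. Per 10000 eGFP reads, Sstr2 had 2.77 and 3.52 reads in the Hes1-derived libraries and 32.6 and 36.2 in the Fgfr3-derived libraries. Slitrk6 had 2.97 and 7.04 against 35.6 and 27.3, and Mtap1b had 15.4 and 21.6 against 67.0 and 85.5. Cpe and Rgs4 came nearest to overlap, with 145 and 271 against 392 and 632 for Cpe and 52.1 and 123 against 185 and 257 for Rgs4. In none of the 9 did the groups overlap, per eGFP read or per read of the stroma genes. The share of all tested genes without overlap on these 2 scales was not computed, so this count has no background beside it. After scaling to eGFP reads, the log2 fold change was −3.45 ± 0.84 for Sstr2, −3.49 ± 0.90 for Lgi1, −2.66 ± 0.81 for Slitrk6, −2.04 ± 0.75 for Mtap1b, −1.34 ± 0.75 for Rgs4 and −1.30 ± 0.75 for Cpe. Against 3 reads over the Hes1-derived group, Nxph2 was at least 19.5-fold and Adarb2 at least 10.3-fold lower per eGFP read. For Nxph2 this bound was 5.90-fold without Fgfr3-derived replicate 3, 37.5-fold without Fgfr3-derived replicate 2, 6.70-fold without Hes1-derived replicate 1 and 12.8-fold without Hes1-derived replicate 3. For Adarb2 it was 3.54-fold without Hes1-derived replicate 1 and 6.75-fold without Hes1-derived replicate 3. Most members were chosen for this difference too, so it supports nothing further.

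**Figure D3:**
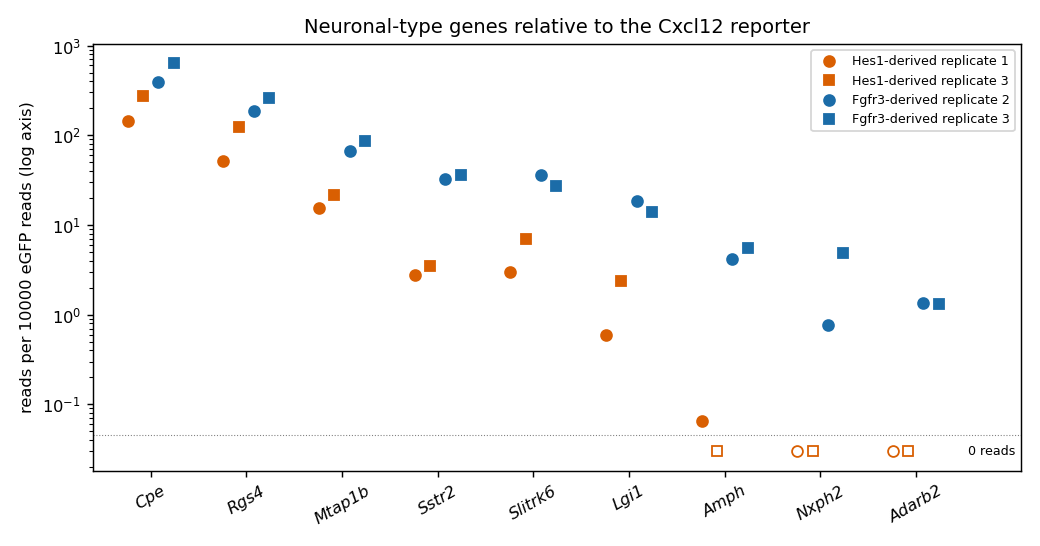
Reads of each of the 9 genes per 10000 eGFP reads (log axis) in each library, open symbols marking libraries with 0 reads. For Rgs4 the highest Hes1-derived value, 123, and the lowest Fgfr3-derived value, 185, are closer than for Sstr2 (3.52 and 32.6).

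**Figure D4:**
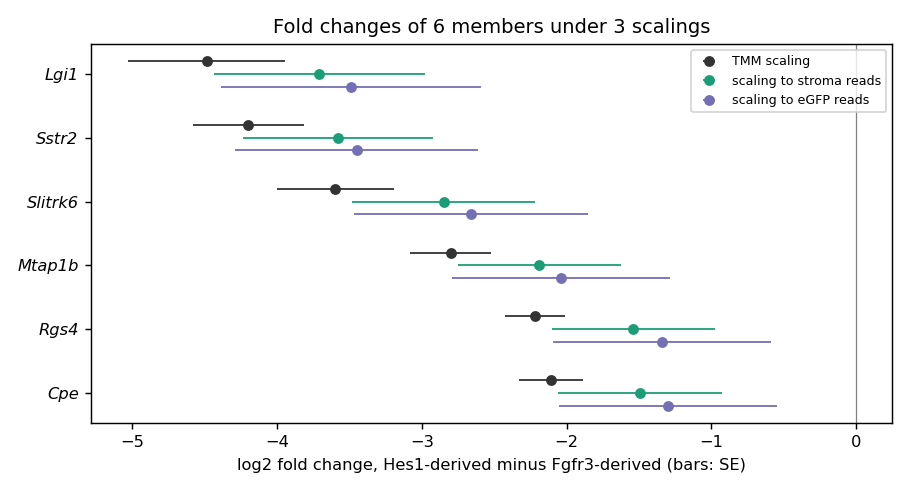
Log2 fold changes with SE of the 6 members that had over 3 reads in the Hes1-derived group, after TMM scaling, scaling to 26 stroma genes and scaling to eGFP reads. Each point is negative, and the eGFP scaling brings Cpe from −2.11 to −1.30 and Lgi1 from −4.49 to −3.49.

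Per kilobase of exon, the members spanned a wide range. In the Fgfr3-derived libraries the order of levels was Cpe (152 ± 17.2 CPM per kilobase, SD, n = 2), Rgs4 (55.7 ± 0.563), Sstr2 (12.8 ± 1.91), Slitrk6 (6.06 ± 2.42), Mtap1b (3.78 ± 0.194), Lgi1 (1.16 ± 0.461), Amph (0.832 ± 0.0182), Nxph2 (0.775 ± 0.707) and Adarb2 (0.0816 ± 0.0206). Slitrk6 and Mtap1b, and likewise Lgi1, Amph, Nxph2 and Adarb2, differed from their neighbours in this order by no more than the larger SD. In the Hes1-derived libraries Cpe (35.2 ± 2.64) and Rgs4 (11.97 ± 1.07) again led, and Sstr2 (0.694 ± 0.237), Mtap1b (0.544 ± 0.150) and Slitrk6 (0.500 ± 0.0463) followed within their spread. Mtap1b has the longest exon set (15846 bases) and Sstr2 the shortest (2143 bases), so that Mtap1b with more CPM than Sstr2 had a lower level per kilobase in both groups. These lengths join all annotated exons of a gene, which lowers the level of genes whose other exons are unused.

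The ratio between the libraries of a group was not what chose the members, and it varied among the 9 genes. In the Fgfr3-derived group, Lgi1 and Slitrk6 were 1.78-fold and 1.79-fold higher in replicate 2 than in replicate 3, while Cpe was at 0.851 and Nxph2 at 0.216 of its replicate 3 level. Amph (1.03), Rgs4 (0.986) and Mtap1b (1.08) were nearly equal in both, and Sstr2 (1.24) and Adarb2 (1.44) lay between. The eGFP row had a ratio of 1.37 between the same libraries, the stroma list 1.45, the osteoblast-lineage list 0.866 and the pan-leukocyte list 0.473. In the Hes1-derived group the ratio of replicate 1 to replicate 3 was 1.64 for Sstr2, 1.48 for Mtap1b, 1.11 for Cpe, 0.882 for Rgs4, 0.877 for Slitrk6 and 0.517 for Lgi1. There eGFP had a ratio of 2.08 and the osteoblast-lineage list 1.08. Lgi1 and Slitrk6 were higher in the eGFP-rich library of the Fgfr3-derived group and not in that of the Hes1-derived group. In the Hes1-derived group Lgi1 had 9 and 19 reads and Slitrk6 had 45 and 56. For both genes the 95% Poisson intervals of these 2 libraries overlapped, so their order there is within counting error. With 2 libraries a group these ratios have no test.

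Markers of neurons, glia and endocrine cells were looked for beside the members. Of 28 neuron markers 18 were analysed, with summed levels of 24.8 and 23.9 CPM in the Hes1-derived libraries and 20.3 and 11.05 CPM in the Fgfr3-derived libraries. Of the 18, 3 and 4 were at 0 in the Hes1-derived and 2 and 3 in the Fgfr3-derived libraries. Rbfox3, the neuronal nuclear protein NeuN, had 19 and 0 reads in the Hes1-derived and 0 and 6 in the Fgfr3-derived libraries. Snap25 of the synaptic vesicle machinery had 2 and 1 against 2 and 0. Tubb3 had 6 and 22 against 14 and 10, and in the Fgfr3-derived libraries all 3 had far fewer reads than Sstr2. Nefh had 59 and 100 reads in the Hes1-derived libraries against 22 and 6, and DESeq2 called it higher. These genes are named after their values were seen. At an unadjusted p under 0.05, 1 neuron marker was lower and 3 were higher. Of 8 neuron markers tested, Isl1, a transcription factor of sensory and motor neurons and of endocrine cells, was lower (0.528 and 0.282 CPM against 7.45 and 3.10 CPM, log2 fold change −3.69 ± 0.69, adjusted p = 0.024), and Uchl1 was higher (12.6 and 12.2 CPM against 3.79 and 3.25 CPM, log2 fold change 1.82 ± 0.35, adjusted p = 0.025). With 12 and 7 reads in the Hes1-derived libraries, Isl1 would not have passed the low-count filter on these alone. Isl1 lost the call without Hes1-derived replicate 3 (0.080) or Fgfr3-derived replicate 2 (0.12) and under the eGFP scaling (0.089), and Uchl1 without Hes1-derived replicate 1 (0.054) or 3 (0.080) or Fgfr3-derived replicate 2 (0.064).

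Of 14 tested glia and Schwann cell markers none was lower by edgeR (4 at an unadjusted p under 0.05, and Egr2 by DESeq2), and Mbp (log2 fold change 1.61 ± 0.30, adjusted p = 0.023) and Gfap (log2 fold change 2.22 ± 0.46, adjusted p = 0.029) were higher. Both calls ended without Fgfr3-derived replicate 2 (0.060 and 0.097), that of Gfap also without Hes1-derived replicate 1 (0.093) and that of Mbp under the eGFP scaling (0.060), where its log2 fold change was larger, at 2.36. Their summed level was 276 and 218 CPM against 330 and 220 CPM. Sox10, a marker of this list named after its values were seen, had 2 reads in Fgfr3-derived replicate 2 and 0 in the other libraries. The 4 markers lower at an unadjusted p under 0.05 were Egr2, Fabp7, Mag and Ngfr, while 3 were higher. The neuroendocrine and dense-core vesicle genes summed to 37.2 and 28.8 CPM against 30.9 and 23.1 CPM, and none of 4 tested was called by edgeR (1 was higher at an unadjusted p under 0.05, and DESeq2 called 1, Ddc, higher). Rab3a and Cadps2 were the most abundant of them. Chromogranin A (Chga), named after its values were seen, had 8 and 0 reads in the Hes1-derived and 0 and 4 in the Fgfr3-derived libraries. In none of these 3 lists did both Fgfr3-derived sums exceed both Hes1-derived sums. A few genes carried much of the sums. Uchl1 did so in the neuron list (12.6 and 12.2 against 3.79 and 3.25 CPM). In the glia list Egr2 (94.1 and 76.4 against 206.7 and 109.8 CPM) and Pmp22 (74.3 and 55.3 against 56.9 and 37.5 CPM) did. The part of the 3 lists in the members' difference was not tested.

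Marker lists of other cells are given here beside the members' direction. Of all tested genes, 5.24% were called higher and 6.56% lower. Pan-leukocyte markers summed to 6666 and 7866 CPM against 1952 and 4127 CPM (9 of 13 tested higher, 69.2%, none lower), B lymphocyte markers to 3341 and 3274 against 780 and 948 CPM (15 of 16 higher, 93.8%) and erythroid markers to 12566 and 7987 against 2277 and 3406 CPM (13 of 14 higher, 92.9%). Neutrophil markers summed to 27647 and 32730 against 9045 and 22335 CPM (1 of 14 higher, 7.14%) and endothelial markers to 246 and 228 against 165 and 167 CPM (1 of 12 higher, 8.33%). Both shares lay near the 5.24% of all tested genes, and the neutrophil sums of the Fgfr3-derived libraries were far apart. In the direction of the members, osteoblast-lineage markers summed to 6732 and 6259 against 31649 and 36543 CPM (13 of 21 lower, 61.9%, none higher), so that the Hes1-derived mean was 0.191 of the Fgfr3-derived mean. The same ratio was 0.232 for Cpe and 0.215 for Rgs4, and between 0.144 and 0.00584 for Mtap1b, Slitrk6, Sstr2, Lgi1 and Amph. The reticular stroma markers summed to 27096 and 17639 against 41247 and 28527 CPM (4 of 28 lower, 14.3%), and Cxcl12, which defines the labelled cell type, had 7057 and 4180 against 9764 and 7028 CPM. Chondrocyte markers (none of 14 called by edgeR, 1 lower at an unadjusted p under 0.05) ran across the groups, with 724 and 2529 against 4178 and 577 CPM. The part of blood cell or osteoblast-lineage RNA in the members' difference was not tested.

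**Figure D5:**
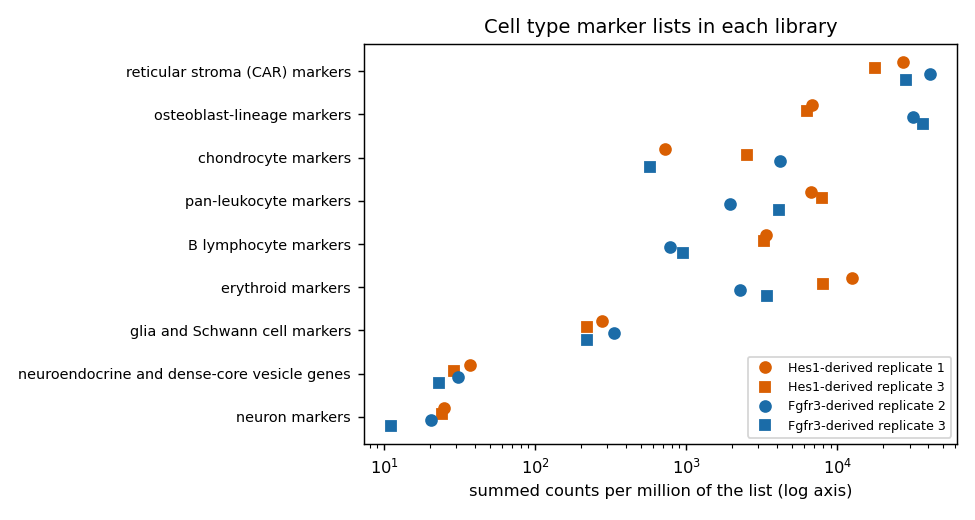
Summed CPM (log axis) of 9 marker lists in each library, Hes1-derived in orange and Fgfr3-derived in blue. The neuron list lies between 11.05 and 24.8 CPM in all libraries, and the osteoblast-lineage list separates the groups in the members' direction.

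The genes most like the members over the 4 libraries were sought by the root mean square distance of log2 CPM, centred on each gene's mean, from the median profile of the 9. Among genes of at least 5 CPM these were Sema3a (distance 0.0908), a secreted axon guidance protein; Mmp13 (0.171), a collagenase of osteoblasts and hypertrophic cartilage; Igdcc4 (0.21), an immunoglobulin-type membrane protein; Spp1 (0.284), the bone matrix protein osteopontin; Art3 (0.309); and Megf10 (0.369), a phagocytic receptor of glia and muscle precursors. Sema3a had 2.90 and 2.50 CPM in the Hes1-derived libraries and 37.3 and 25.3 CPM in the Fgfr3-derived libraries. Spp1 had 578 and 454 against 6382 and 7193 CPM. Of the members themselves, Adarb2 (0.0115) and Slitrk6 (0.14) lay close to the median profile and Nxph2 (0.937) far from it. A small constant was added to CPM before the logarithm. It set the low end of Adarb2 and Nxph2, which had 0 reads in both Hes1-derived libraries. Predicted and unnamed genes were left out of the ranking. As the profile of 4 libraries is mainly the difference between the groups, this ranking has no test.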

How the data were processed

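The authors deposited unnormalized counts by gene symbol, 1 column a library. RNA was amplified before sequencing, per the series' design text. The submitters' processing notes name build mm10, the aligners Bowtie2 2.2.1 and TopHat2 2.0.13, and HTSeq, DESeq2, FastQC, Cuffdiff and Cufflinks, without a role or order; annotation and strand setting are not given in the sources used here. A deposited table of log2 values, regularized per its name, served as an alternative. The labels name a sort for GFP and tdTomato in one field and for tdTomato alone in another, and a single-cell loading that a single column of counts a library does not match, so the values were treated as bulk.

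Counts were fitted with the quasi-likelihood test of edgeR 4.0.16 (R 4.3.3; TMM factors, filterByExpr with a minimum count of 10, robust dispersions), Hes1-derived against Fgfr3-derived, with Benjamini-Hochberg adjustment over 14330 genes and a threshold of 0.05. SEs were taken from the fold change and its F statistic. The biological coefficient of variation was 27.8%, with 2 residual degrees of freedom before sharing across genes. On simulated data for this comparison, with 14146 genes tested, the calls took in 91 of 100 genes at a 4-fold change, 11 of 100 at a 2-fold change and 4 unchanged genes. The changed genes were drawn only from well-covered genes, and all genes were given the same dispersion. These numbers therefore do not cover genes with few reads or with a larger spread. Only 100 genes were changed at each fold, fewer than the 940 lower and 751 higher calls in these data. The adjustment was thus stricter there, and the numbers do not give the share missed here. Poisson intervals and the 3-read floor cover counting error only.

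The members and the gene lists were chosen with earlier results of these data known. The named genes are the members, in each list the 4 called genes of lowest p a direction (or, with no call, the 2 of highest CPM), and the 6 genes of most similar profile. Of these, the genes of blood, vessel, cartilage, bone and stroma lists, and the Hes1, Fgfr3, iCre-ERT2 and tdTomato-WPRE rows, are given as list counts or left out. Positions and exon lengths come from GENCODE M21 (GRCm38), which matched 16914 of 17230 rows. Alternatives were RLE factors, DESeq2 1.42.0, other filters, scaling to eGFP reads or to 26 stroma genes, the deposited log2 values and leaving out each library. The result of 1 related gene is not reported here.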

Additional observations from a re-analysis of the deposited data

How the results depend on the processing

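No paired analysis was possible because the groups share only replicate number 3. All 9 members, chosen for this direction, were lower under each alternative but the filter of at least 50 reads in 2 libraries, which left 7, all lower. Leaving out libraries in the bounds of Nxph2 and Adarb2 was chosen after seeing the data. Their median log2 fold change was −4.20 (−4.08 with the genes at 0 set to their bound), −3.55 for the 7 members left by that filter (−3.60 for those in the main test), −3.45 after scaling to eGFP reads, −3.58 after scaling to stroma reads and −1.71 in the deposited regularized log2 values, which shrink low counts by construction. The 10 lower and 3 higher family genes became 19 and 7 with DESeq2, which called all 13 of them, 0 and 3 after scaling to eGFP reads, and 3 and 8 after scaling to stroma reads. Leaving out a library gave 3 to 11 lower and 1 to 5 higher; Adarb1 and Cpm kept their calls in all 4 of these fits. Over all genes the 940 lower and 751 higher calls became 1552 and 1411 with DESeq2, 19 and 324 after scaling to eGFP reads and 138 and 1293 after scaling to stroma reads, and 181 to 998 lower and 183 to 1225 higher without a library. The log2 fold change of Sstr1, 0.02, ranged from −0.73 to 0.97 and that of Ap2m1, 0.03, from −0.059 to 0.20 without a library. The cause of these changes was not tested. RLE factors and the absence of a filter kept each of these counts within 1.5 times. In the simulation most genes changed 2-fold were missed, while in these data some of about that size were called, such as Ptprs and Dpysl2.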

Other observations

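The 9 members lie on 7 chromosomes, with Amph, Mtap1b and Adarb2 on chromosome 13, which holds 3.70% of tested genes. The nearest tested protein-coding gene on each side of every member was looked up, a choice made after the data were seen. Of these 18 neighbours 4 were lower (22.2%, beside 6.56% of all tested genes) and none was higher, with a median log2 fold change of −0.44. They were Rgs5, 45664 bases from Rgs4; Tmem20, 83766 bases from Lgi1 (41.1 and 34.7 CPM in the Hes1-derived libraries against 102 and 74.6 CPM, −1.22 ± 0.24, adjusted p = 0.026); Gpc6, a glypican 6170166 bases from Slitrk6 (87.0 and 64.6 against 202.9 and 146 CPM, −1.20 ± 0.26, adjusted p = 0.030); and Sc4mol, a sterol synthesis enzyme 25085 bases from Cpe (45.3 and 43.3 against 69.4 and 96.3 CPM, −0.90 ± 0.23, adjusted p = 0.0499). None passed after scaling to eGFP reads. Tmem20 lost the call without Hes1-derived replicate 3 (0.12) or Fgfr3-derived replicate 2 (0.082), Gpc6 without the same libraries (0.15 and 0.090), and Sc4mol without Hes1-derived replicate 1 (0.13) or 3 (0.21) or Fgfr3-derived replicate 2 (0.052) or 3 (0.14). Neither neighbour of Sstr2 was called: Cog1, 23141 bases away, had 86.3 and 83.3 against 90.7 and 93.1 CPM, and the cartilage regulator Sox9, 831582 bases away, had 59.2 and 45.1 against 125.9 and 65.9 CPM (−0.88 ± 0.33, adjusted p = 0.13).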
